A study of Mus musculus with 12 samples.

Results

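Tumors that grew from Lats1-/-;Lats2-/- cells under the kidney capsule of immunodeficient mice were compared with metastases taken from the lungs of mice whose tubule cells had lost both genes in place. The comparison uses 6 of the 12 RNA-seq libraries of the series, 3 allograft tumors and 3 lung metastases, chosen by their labels. For the allograft tumors, Lats1-/-;Lats2-/- cells, whose strain is labelled a mixed source, were placed beneath the renal capsule of NOD/scid hosts aged 6 to 8 weeks, and the growths were dissected 6 weeks later. The lung metastases came from Slc34a1CreERT2;Lats1/2flox/flox mice on a mixed background that received 3 injections of tamoxifen at 1 month of age and were collected 4 months afterwards. Slc34a1CreERT2 is a tamoxifen-activated Cre driven from the gene of the proximal tubule phosphate transporter, so recombination is directed to those cells. All 6 libraries therefore carry Lats1 and Lats2 loss in the tumor cells by label, while the surrounding host cells do not share 1 genotype. NOD/scid hosts are known to lack mature T and B cells and to keep myeloid cells and, in reduced form, natural killer cells. No source used here says how the implanted cells were derived or whether they were 1 clone. No label says that the replicates of a group came from separate animals, so p-values measure the spread between these samples. Primary kidney tumors of the Slc34a1CreERT2;Lats1/2flox/flox mice and sorted proximal tubule cells of Slc34a1CreERT2;Lats1c/c;Lats2c/+;RosaTomato mice, 3 libraries each, entered the fit for their spread and are quoted only as levels.

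LATS1 and LATS2 are the last kinases of the Hippo pathway. They phosphorylate the coactivators YAP and TAZ and keep them out of the nucleus, where YAP and TAZ would otherwise act with the TEAD factors on genes of growth, adhesion and matrix. In the kidney the pathway holds tubule cells in a quiet epithelial state, and its loss there is known to give fibrosis and tumors.

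The files give FPKM, a read density scaled for gene length and library size. Tests ran on log2(FPKM + 1), a scale that understates the change of low genes. A log2 change is the allograft mean minus the metastasis mean, so that positive values are higher in allograft tumors. A gene was called at an adjusted p under 0.05 from limma over the 16313 genes that reached 1 FPKM in 3 or more libraries. Between the groups 3872 genes (23.7%) were called, 1703 higher (10.4%) and 2169 lower (13.3%) in allograft tumors. The libraries of the groups did not overlap for 48.5% of genes, 24.8% higher and 23.6% lower. The split depended on the scaling. It was 464 higher and 2192 lower after rescaling to TPM, 784 and 2609 without the 50 most abundant genes, and 2246 and 1855 after quantile normalization, and the median log2 change of all genes, 0.03 here, was -0.23, -0.20 and 0.11 under these scalings. Each result is therefore also read against 18 alternatives (the scalings, filters, other fits and the loss of each library), and a call is described as held where no alternative that tested the gene ended it. Of the calls, 406 higher and 1250 lower were held, and 98 and 424 of these were of genes that at least 1 alternative did not test. Leaving out 1 library reduced the calls higher to 1022 without allograft 1 and to 1031, 826 and 820 without metastasis 1, 2 and 3. Allograft tumors were less alike than metastases (correlation of log2 values 0.919 to 0.949 against 0.953 to 0.963). Primary tumors were the least alike (0.797 to 0.928). Each SE and p-value rests on a spread pooled over all 4 groups, so it can differ from the spread of the 6 values printed beside it. The steps of low FPKM values give approximate relative depths of 0.9, 0.973 and 0.619 for allografts 1, 2 and 3, and of 1, 0.831 and 0.783 for metastases 1, 2 and 3, so that allograft 3 was the shallowest.

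**Figure D1:**
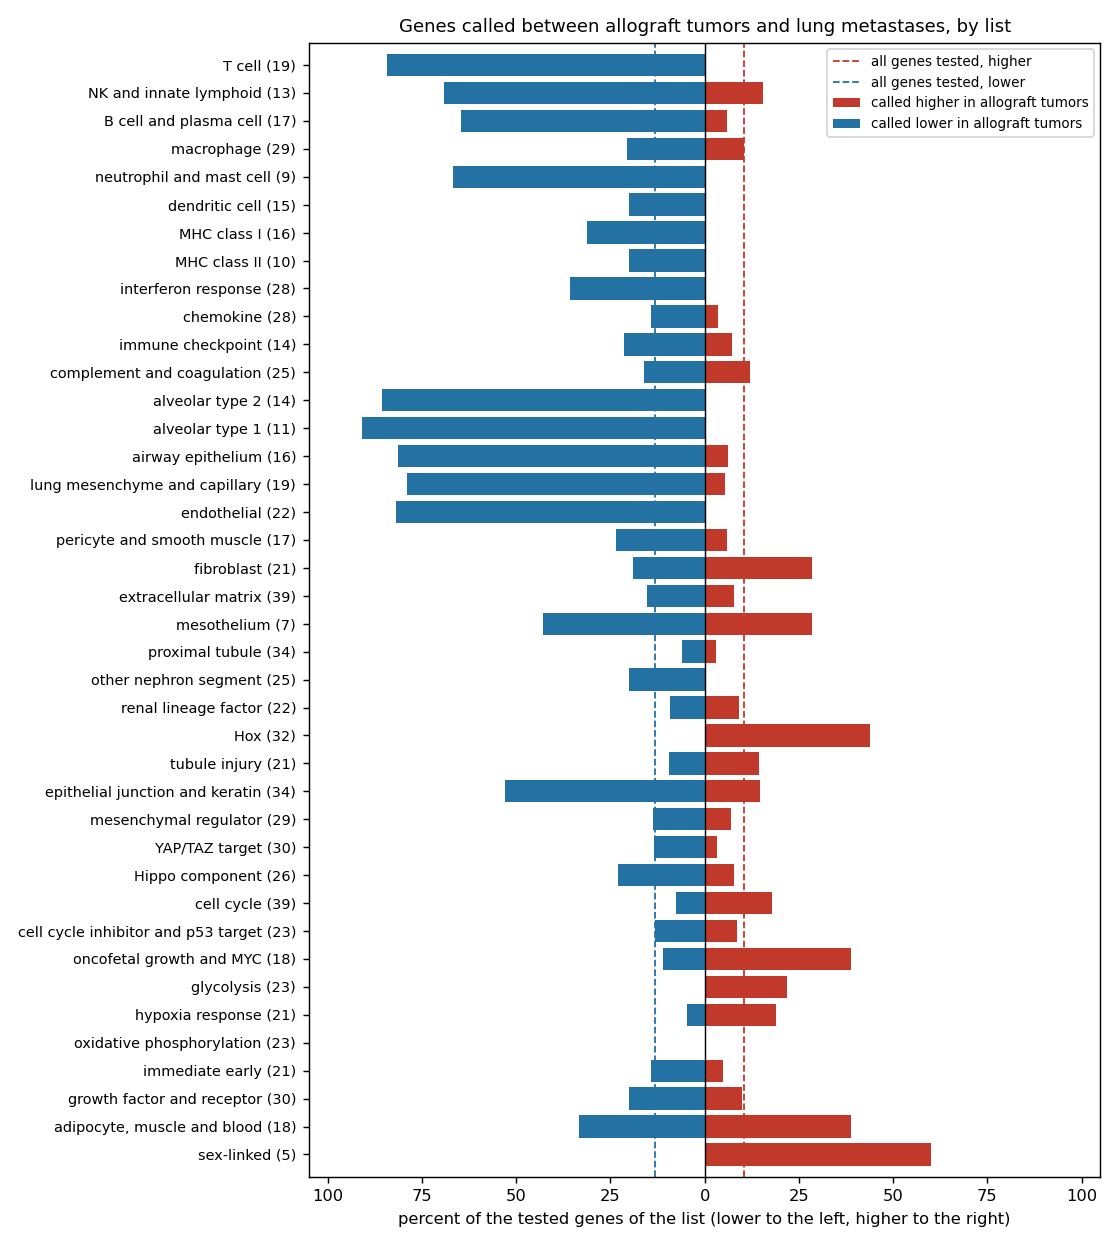
Percent of the tested genes of each list (number in brackets) that were called higher (right, red) or lower (left, blue) in allograft tumors than in lung metastases, n = 3 each. Dashed lines mark the shares of all genes tested, 10.4% and 13.3%. The lists of lung, endothelial, T cell and B cell genes lie far to the left, and Hox, oncofetal and fibroblast genes reach well past the right dashed line.

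The targeted genes came first as a check of the labels. Lats1 had 5.6, 7.82 and 7.29 FPKM in the allograft tumors, against 9.54, 10.3 and 10.7 FPKM in the metastases (log2 change -0.51 ± 0.15 (SE), adjusted p = 0.0287), a call lost without allograft 1 or metastasis 1, 2 or 3 and with the fit of these 6 libraries, quantile normalization and TPM scaling (adjusted p = 0.0506 to 0.108). Lats2 had 12.2, 16.6 and 17.1 FPKM in allografts, against 22.5, 19.9 and 22.4 FPKM in metastases (log2 change -0.48 ± 0.19 (SE), adjusted p = 0.099). Transcripts of both genes were present in every library of both groups. Which exons they came from, and how much of them came from host cells, was not tested. Slc34a1, the gene that drives the Cre and marks proximal tubules, was near 0 in both groups, at 1.37, 0.97 and 0.12 FPKM in allografts and 0.0169, 0.0609 and 0.0951 FPKM in metastases, while sorted tubule cells averaged 933 FPKM.

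The metastasis libraries held a large amount of lung RNA and the allograft libraries little. Secretoglobin Scgb1a1 (Club cell secretory protein, ENSMUSG00000024653, chr19:9083636-9087958, minus strand, GRCm38) had 0.484, 1.34 and 3.52 FPKM in the allograft tumors, against 6438, 9267 and 11197 FPKM in the metastases (log2 change -11.77 ± 0.42 (SE), adjusted p = 3.77e-08). Surfactant protein gene Sftpc had 0, 0.0884 and 2.5 FPKM in the allografts, against 3851, 5344 and 5694 FPKM in the metastases. Ager, the receptor that marks alveolar type 1 cells, had 1.88, 2.24 and 2.79 FPKM, against 627, 690.2 and 787 FPKM. Every metastasis was thus far above every allograft for these 3 genes, and primary kidney tumors averaged 0.816, 0.567 and 4.49 FPKM.

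The lung lists fell almost as a whole. Of 14 tested genes of alveolar type 2 cells 12 were lower in allograft tumors (median log2 change -6.07, 0.03 over all genes), of 11 of type 1 cells 10 (-3.93), of 16 of airway epithelium 13 (-4.47) and of 19 of lung mesenchyme and capillaries 15 (-2.71). The share of all genes called lower was 13.3%. Held calls of the 4 lists numbered 9, 10, 13 and 12. Among the largest falls were the surfactant genes Sftpb (-9.39), Sftpd (-7.87) and Sftpa1 (-7.87), the secretoglobins Scgb3a2 (-8.99) and Scgb3a1 (-7.61), the lung phosphate transporter Slc34a2 (-7.99), the lung chemokine Cxcl15 (-8.07) and the alveolar claudin Cldn18 (-6.96). Scgb3a2 was listed at 0 in all 3 allografts and at 383, 611 and 559 FPKM in the metastases. The embryonic lung mesenchyme factors Foxf1 (0.0731, 0.406 and 0.354 against 12.3, 18.4 and 26.3 FPKM) and Tbx4 (0.372, 0.253 and 0.114 against 6.73, 10.1 and 10.6 FPKM) were likewise lower in every allograft. Calca, the calcitonin gene of neuroendocrine airway cells, was the airway member called higher (6.28, 29.2 and 2.32 against 0.635, 0.685 and 0.318 FPKM, log2 change 2.55 ± 0.62 (SE), adjusted p = 0.014), lost without metastasis 3 and with the fit of these 6 libraries and TPM scaling (adjusted p = 0.0527 to 0.0645). Foxj1, the regulator of motile cilia, had 37.5, 30.4 and 21.7 FPKM in allografts and 18.0, 33.4 and 31.3 FPKM in metastases and was not called (log2 change 0.13 ± 0.41 (SE), adjusted p = 0.875). Summed FPKM of the 4 lists were 150.0 to 487, 59.1 to 1041, 54.1 to 203 and 82.9 to 182 in allografts, against 6705 to 9371, 2085 to 2529, 8032 to 13311 and 511 to 997 in metastases. The upper end of the type 1 sum in allografts was Igfbp2, a secreted growth factor binding protein that many tissues make, at 1014, 409.6 and 1.35 FPKM in allografts and 1184, 643 and 584 FPKM in metastases. The part of lung tissue in the other differences below was not tested.

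Allograft tumors carried fat and, in 2 of 3 libraries, skeletal muscle RNA. Of 18 tested genes of fat, muscle and blood 7 rose (3 held) and 6 fell (1 held), where 10.4% and 13.3% of all genes did. The held rises were the fat genes Adipoq, Cfd and Retn. Cfd, the adipocyte complement factor D (adipsin), had 401, 1557 and 63.8 FPKM in the allografts, against 2.33, 0.255 and 0.181 FPKM in the metastases (log2 change 7.66 ± 0.89 (SE), adjusted p = 0.000201), the largest rise under the naming rule. The adipocyte hormone gene Adipoq had 79.5, 218 and 13.7 FPKM, against 0.631, 0.0584 and 0 FPKM (log2 change 5.73 ± 0.73 (SE), adjusted p = 0.000347). Carbonic anhydrase gene Car3 had 364, 806 and 41.8 FPKM, against 3.76, 1.24 and 1.03 FPKM (log2 change 6.38 ± 1.09 (SE), adjusted p = 0.00218). All 3 were highest in allograft 2 and lowest in allograft 3, without overlap with the metastases. Skeletal actin Acta1 had 267, 227 and 1.0 FPKM in the allografts, against 0.659, 0.839 and 0.544 FPKM in the metastases (log2 change 4.89), so that allograft 3 lay close to the metastases, and the call was lost without allograft 1 or 2 or metastasis 1, 2 or 3 and with the fit of these 6 libraries (adjusted p = 0.0807 to 0.123). Prss2, a pancreatic trypsinogen that did not pass the filter and was chosen after its values were seen, had 0.184, 606 and 0.267 FPKM in the allografts and 0.0827, 0.0996 and 0.211 FPKM in the metastases, so that allograft 2 alone held it. The metastases in turn had more of the cardiac myosin gene Myh6, also chosen after its values were seen, with 33.0, 32.5 and 11.8 FPKM in allografts, against 69.4, 68.5 and 99.5 FPKM (log2 change -1.69 ± 0.33 (SE), adjusted p = 0.00492), and this call was held. Globin Hbb-bt had 12.4, 40.3 and 8.5 FPKM in the allografts and 84.8, 207 and 222 FPKM in the metastases (log2 change -3.19 ± 0.76 (SE), adjusted p = 0.0124), a call lost without metastasis 2 or 3 (adjusted p = 0.0503 to 0.0531).

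**Figure D2:**
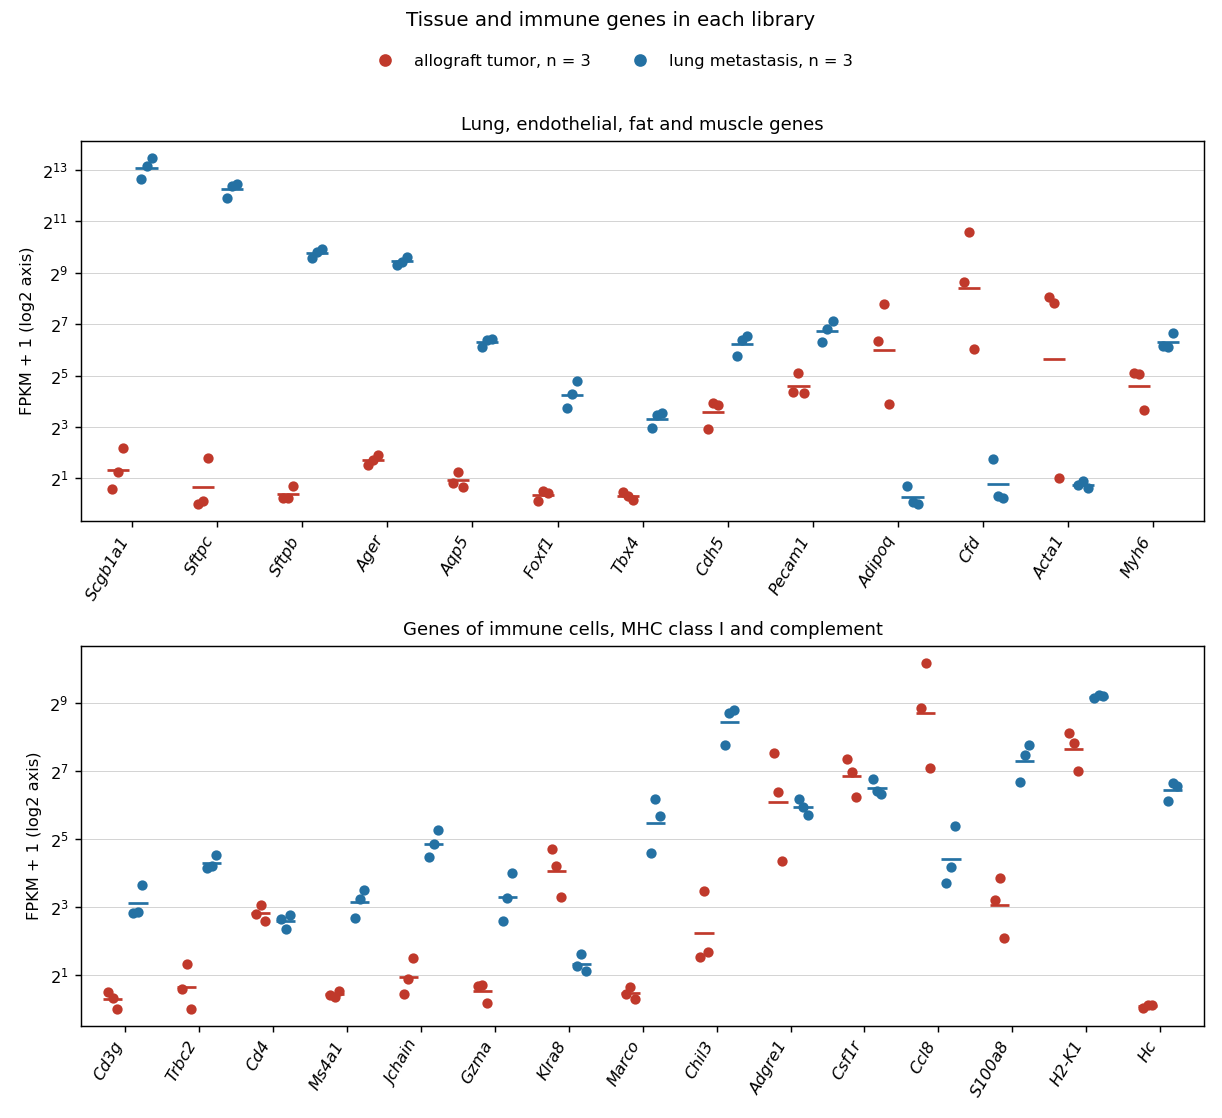
FPKM + 1 on a log2 axis for genes of lung, vessels, fat and muscle (top) and of immune cells, MHC class I and complement (bottom). Each point is 1 library, red for allograft tumors and blue for lung metastases, and the short lines are means of the log2 values. Most lung and lymphocyte genes lie near the bottom of the axis in the allografts, while Adgre1 and Csf1r have a wider spread among allografts than the distance between the groups.

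Genes of vessels were lower in the allografts. Of 22 tested endothelial genes 18 fell, where 13.3% of all genes did, and none rose. Of these calls 17 were held, and the median log2 change was -1.96. VE-cadherin Cdh5 had 6.54, 14.4 and 13.2 FPKM in allografts, against 52.9, 81.5 and 91.4 FPKM in metastases (log2 change -2.65 ± 0.32 (SE), adjusted p = 0.000257). The endothelial junction gene Pecam1 had 19.3, 33.2 and 18.8 FPKM, against 78.9, 110.5 and 138 FPKM (log2 change -2.16 ± 0.29 (SE), adjusted p = 0.000549). The capillary lipase anchor Gpihbp1 had 13.7, 29.5 and 20.7 FPKM, against 107, 125 and 143 FPKM (log2 change -2.55 ± 0.33 (SE), adjusted p = 0.000365). The 3 allografts lay below all 3 metastases for each of them. Epas1, the HIF-2alpha subunit that endothelium carries at high level, followed, with 3.72, 10.48 and 4.8 FPKM, against 27.4, 43.5 and 68.2 FPKM (log2 change -2.71 ± 0.38 (SE), adjusted p = 0.000634). In bulk tissue, fewer cells of a type and less RNA per cell cannot be told apart, and lung is rich in capillaries. Pericyte genes were mixed. Rgs5, a regulator of G protein signalling in pericytes, rose (35.4, 58.9 and 65.2 against 18.8, 4.34 and 6.48 FPKM, log2 change 2.503 ± 0.43 (SE), adjusted p = 0.00237), whereas the smooth muscle light chain Myl9 fell (19, 36.7 and 25.2 against 86.6, 83.5 and 96.8 FPKM, log2 change -1.73 ± 0.32 (SE), adjusted p = 0.00319), and Acta2 had 129, 110.3 and 236 FPKM in allografts and 162, 149 and 163 FPKM in metastases (log2 change -0.07, adjusted p = 0.96).

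Among Hippo components, the 2 coactivators were lower in the allografts by less than 1 log2 unit. Yap1 had 8.83, 14.0 and 21.9 FPKM in the allograft tumors, against 26.4, 24.6 and 25.3 FPKM in the metastases (log2 change -0.81 ± 0.24 (SE), adjusted p = 0.0351). Wwtr1, which encodes TAZ, had 33.9, 30.1 and 25.3 FPKM, against 43.8, 44.2 and 46.7 FPKM (log2 change -0.59 ± 0.15 (SE), adjusted p = 0.0171). The Yap1 call was lost without allograft 1 or 2 or metastasis 1, 2 or 3 and with the fit of these 6 libraries (adjusted p = 0.0715 to 0.0973). The Wwtr1 call was lost without metastasis 2 or 3 (adjusted p = 0.0559 to 0.0706). Tead2, one of the DNA-binding partners, had 63.3, 42.8 and 39.1 FPKM in allografts, against 16.3, 15.9 and 12.9 FPKM in metastases (log2 change 1.60 ± 0.49 (SE), adjusted p = 0.0376), a call lost without allograft 1, 2 or 3 or metastasis 1, 2 or 3 and with 5 of the other alternatives (adjusted p = 0.0511 to 0.124). Of 26 tested components 2 were called higher and 6 lower, where 10.4% and 13.3% of all genes were, and no call was held. With 1 library left out the count lower was 2 without allograft 1, 3 without metastasis 1, 3 without metastasis 2 and 1 without metastasis 3. Nf2, the upstream tumor suppressor merlin, had 97.7, 78.2 and 67.6 FPKM in allografts and 84.9, 71.8 and 67.7 FPKM in metastases (log2 change 0.11 ± 0.24 (SE), adjusted p = 0.807).

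Of the known YAP and TAZ targets, Ankrd1 stood apart. Ankrd1 (ENSMUSG00000024803, chr19:36111961-36120099, minus strand), an ankyrin-repeat cofactor induced by YAP, had 462, 294 and 442 FPKM in the allograft tumors, against 53.3, 48.8 and 49.7 FPKM in the metastases (log2 change 2.93 ± 0.59 (SE), adjusted p = 0.00543), without overlap, and the call was held. Primary tumors averaged 12 FPKM and tubule cells 0.757 FPKM. The matricellular genes Ccn1 (318, 248 and 204 against 148, 158 and 152 FPKM, log2 change 0.72 ± 0.49 (SE), adjusted p = 0.329) and Ccn2 (169, 209 and 354 against 125, 99.2 and 97.4 FPKM, log2 change 1.12 ± 0.43 (SE), adjusted p = 0.0892) and the receptor kinase gene Axl (326, 228 and 382 against 201, 198 and 159 FPKM, log2 change 0.72 ± 0.47 (SE), adjusted p = 0.309) had every allograft above every metastasis but did not pass the test. In a fit of these 6 libraries alone Ccn1 and Ccn2 passed (adjusted p = 0.0385 and 0.0366). Of the 30 tested targets 8 were higher and 8 lower without overlap, where 24.8% and 23.6% of all genes were. Targets that fell were the EGF receptor ligand Areg (0.329, 0.152 and 0.319 against 11.7, 9.4 and 6.75 FPKM, log2 change -2.995 ± 0.19 (SE), adjusted p = 4.16e-06), the ectonucleotidase Nt5e (7.68, 8.04 and 6.62 against 33.1, 40.1 and 36.6 FPKM, log2 change -2.15 ± 0.31 (SE), adjusted p = 0.000827), the RNA-binding protein gene Rbms3 (-1.65) and the forkhead gene Foxf2 (-1.57). In all, 1 of 30 tested targets was higher and 4 were lower, all held, where 10.4% and 13.3% of all genes were. With array weights 4 were higher and 9 lower, and in the fit of these 6 libraries 5 and 5. The median log2 change was -0.07, and its sign turned with quantile normalization (0.01), with array weights (0.06), without allograft 1 (0.07) and without metastasis 1 (0.05).

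The promoters of Ankrd1 and Ccn1, the target that rose and one that was not called, are shown because both carry the core letters of the TEAD motif (GGAATG, or CATTCC on the other strand, in capitals). The windows run from 250 bases before to 50 after the start in RefSeq on GRCm38.p6, Ankrd1 at chr19:36119795-36120094, minus strand, and Ccn1 at chr3:145649936-145650235, minus strand.
Ankrd1: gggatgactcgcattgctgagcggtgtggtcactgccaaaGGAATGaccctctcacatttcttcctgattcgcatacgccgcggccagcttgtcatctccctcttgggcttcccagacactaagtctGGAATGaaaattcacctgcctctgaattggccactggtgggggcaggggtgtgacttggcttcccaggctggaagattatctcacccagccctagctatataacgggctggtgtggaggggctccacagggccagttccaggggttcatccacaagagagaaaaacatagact
Ccn1: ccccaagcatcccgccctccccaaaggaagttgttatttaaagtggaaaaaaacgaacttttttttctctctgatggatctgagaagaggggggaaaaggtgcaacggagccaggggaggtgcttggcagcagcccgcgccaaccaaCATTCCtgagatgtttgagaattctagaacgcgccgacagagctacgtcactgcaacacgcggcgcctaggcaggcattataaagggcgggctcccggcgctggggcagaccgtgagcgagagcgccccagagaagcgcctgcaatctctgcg

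Ankrd1 holds 2 matches and Ccn1 holds 1. A match was found in 14.9% of the promoters of the 12020 tested genes with a window, against 8 of 17 uncalled targets with a window and 0 of the 4 that fell. A match in these letters is a description of the sequence and not a measured binding site.

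The tumor suppressor locus on chromosome 4 was higher in the allografts. Cdkn2a (ENSMUSG00000044303, chr4:89274471-89294653, minus strand), which encodes p16INK4a and p19ARF, had 50.9, 24.2 and 54.1 FPKM in the allograft tumors, against 1.45, 0.913 and 1.01 FPKM in the metastases (log2 change 4.30 ± 0.27 (SE), adjusted p = 3.2e-06). Its neighbor Cdkn2b, encoding p15INK4b, had 40.0, 17.8 and 28.8 FPKM, against 10.6, 9.14 and 8.79 FPKM (log2 change 1.44 ± 0.33 (SE), adjusted p = 0.0104), a call lost with scaling without the 50 most abundant genes (adjusted p = 0.0527). No allograft came near a metastasis for Cdkn2a, and primary tumors averaged 1.1 FPKM. The genes of its list that fell were the p57 gene Cdkn1c (3.29, 3.56 and 5.95 against 9.3, 11.6 and 15.2 FPKM, log2 change -1.31 ± 0.28 (SE), adjusted p = 0.00678), the p53 target Btg2 (-1.42) and the death receptor gene Fas (-1.45), all held. Of 23 tested genes of the list 2 rose, 3 fell and 18 were not called, where 10.4% and 13.3% of all genes rose and fell. Cdkn1a, encoding p21, had 12.6, 12.9 and 24.3 FPKM in allografts and 22.5, 23.4 and 16.1 FPKM in metastases (log2 change -0.35 ± 0.35 (SE), adjusted p = 0.53).

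Several replication genes were higher in the allografts. Mcm7, a subunit of the replicative helicase, had 131, 92.6 and 124 FPKM, against 32.4, 34.4 and 29.7 FPKM in metastases (log2 change 1.80 ± 0.29 (SE), adjusted p = 0.00163). Mybl2, a factor that drives cell cycle genes, had 12.3, 11.6 and 18.2 FPKM, against 3.51, 3.88 and 3.5 FPKM (log2 change 1.68 ± 0.31 (SE), adjusted p = 0.00356). Thymidylate synthase gene Tyms had 89.3, 56.7 and 55.8 FPKM, against 25.8, 31.3 and 29.7 FPKM (log2 change 1.16 ± 0.22 (SE), adjusted p = 0.00418). The 3 calls were held and the groups were separate. Of 39 tested cell cycle genes 7 rose and 3 fell, where 10.4% and 13.3% of all genes did, with a median log2 change of 0.93. The count of rises was 4 without allograft 1, 3 without metastasis 1, 3 without metastasis 2 and 3 without metastasis 3. It was 3 after TPM rescaling, 23 with array weights and 23 in the fit of these 6 libraries. Without overlap of the libraries 32 of the 39 genes were higher and 4 lower, where 24.8% and 23.6% of all genes were. Among the falls were the cyclin gene Ccnd2 (7.17, 12.6 and 9.29 against 39.3, 29.3 and 30.1 FPKM, log2 change -1.68 ± 0.36 (SE), adjusted p = 0.00781) and E2f2 (-1.08). The proliferation marker Mki67 had 54.5, 40.6 and 55.9 FPKM in allografts and 33.4, 38.0 and 33.5 FPKM in metastases (log2 change 0.50 ± 0.54 (SE), adjusted p = 0.554), so that it was not separated by the test although every allograft was the higher.

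Several genes of fetal growth were higher in the allografts. Of 18 tested genes 7 rose, 2 fell and 9 were not called, where 10.4% and 13.3% of all genes rose and fell. The held calls were 6 higher and 2 lower, and the median log2 change was 0.62. The mRNA-binding protein gene Igf2bp2 had 11.4, 9.23 and 22.8 FPKM in allografts, against 1.96, 2.38 and 2.56 FPKM in metastases (log2 change 2.14 ± 0.26 (SE), adjusted p = 0.000286). The chromatin factor genes Hmga1 (47.0, 45.9 and 96.7 against 18.1, 23.9 and 17.7 FPKM, log2 change 1.54 ± 0.30 (SE), adjusted p = 0.00492) and Hmga2 (7.49, 6.0 and 24.5 against 2.06, 2.84 and 2.44 FPKM, log2 change 1.74 ± 0.41 (SE), adjusted p = 0.0118) were highest in allograft 3. H19, an imprinted noncoding RNA expressed from the maternal copy, had 59.99, 23.5 and 8.73 FPKM, against 1.54, 1.49 and 2.3 FPKM (log2 change 3.15 ± 0.61 (SE), adjusted p = 0.00452), and was highest in allograft 1. The maternally expressed noncoding RNAs Meg3 (12.4, 25.2 and 11.3 against 3.42, 2.13 and 3.7 FPKM, log2 change 2.02 ± 0.33 (SE), adjusted p = 0.00155) and Rian (40.96, 64.6 and 13.7 against 7.27, 10.1 and 8.37 FPKM, log2 change 1.85 ± 0.45 (SE), adjusted p = 0.0141), neighbors on chromosome 12, were higher too, the Rian call being lost without allograft 1 and with TPM scaling (adjusted p = 0.0542 to 0.0829).

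Peg3, a zinc finger gene expressed from the paternal copy (ENSMUSG00000002265, chr7:6703892-6730431, minus strand), fell. It had 1.78, 4.09 and 2.76 FPKM in the allograft tumors, against 112, 91.9 and 76.2 FPKM in the metastases (log2 change -4.63 ± 0.84 (SE), adjusted p = 0.00318), and the call was held. Every metastasis was far above every allograft. Primary tumors differed among themselves, at 81.0, 3.69 and 5.41 FPKM. Cdkn1c, given above and the other gene of the list that fell, is also imprinted and is expressed from the maternal copy. Myc had 14.5, 17.7 and 46.2 FPKM in allografts and 12.1, 12 and 9.31 FPKM in metastases (log2 change 0.98 ± 0.46 (SE), adjusted p = 0.151).

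**Figure D3:**
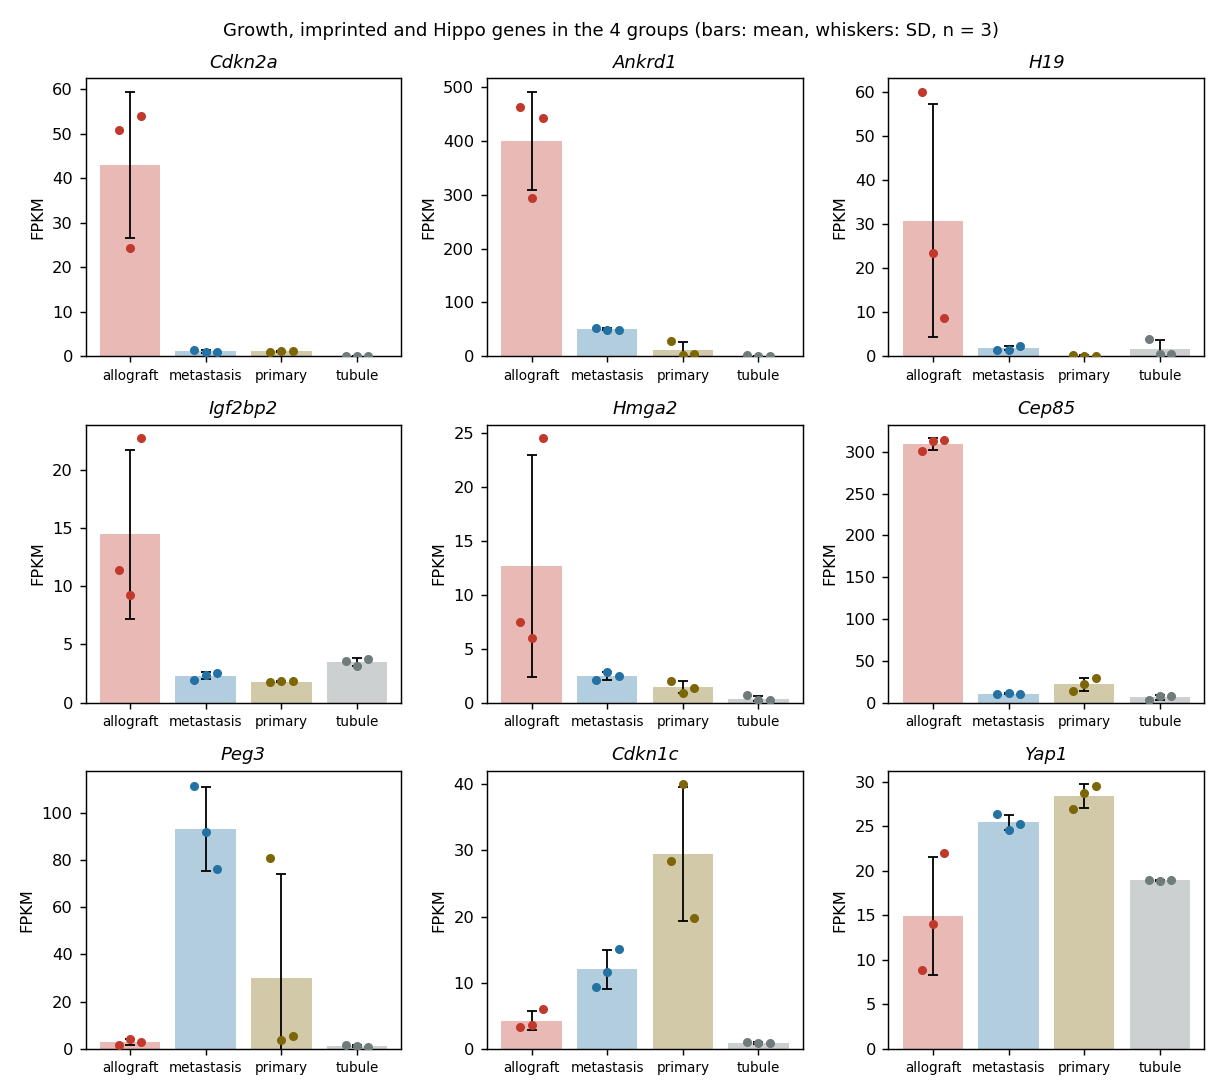
FPKM of 9 genes in allograft tumors, lung metastases, primary tumors and sorted proximal tubule cells. Points are libraries, bars are means, whiskers are SDs (n = 3 each, whiskers end at 0 where they would pass below it). Cdkn2a, Ankrd1 and Cep85 are higher in the 3 allografts than in any other library, and Peg3 is highest in the 3 metastases and 1 primary tumor.

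Hox genes, the homeodomain factors that carry positional identity, were higher in the allografts in members of every cluster (A, B, C and D). Of 32 tested Hox genes 14 were called higher, where 10.4% of all genes were, and none lower. Of these calls 6 were held, and the median log2 change was 0.66. The count was 9 without metastasis 2 and 9 without metastasis 3, and 7 after TPM rescaling, and 1 gene was called lower without allograft 3 and 1 with array weights. Hoxd10 had 5.8, 9.25 and 7.13 FPKM in the allograft tumors, against 0.0298, 0.0718 and 0.0761 FPKM in the metastases (log2 change 2.97 ± 0.22 (SE), adjusted p = 1.04e-05). Hoxd8 had 20.8, 20.4 and 17 FPKM, against 2.75, 1.59 and 1.96 FPKM (log2 change 2.73 ± 0.30 (SE), adjusted p = 0.000141). Hoxd4 had 3.92, 5.71 and 3.64 FPKM, against 0.516, 0.298 and 0.237 FPKM (log2 change 1.99 ± 0.27 (SE), adjusted p = 0.000528). These 3 genes of the D cluster separated the groups completely. Primary tumors averaged 49.3 FPKM of Hoxd8 and 9.59 FPKM of Hoxd10, and tubule cells 32.5 and 1.92 FPKM. Hoxb13, the most posterior gene of the B cluster, had 5.68, 2.08 and 1.59 FPKM in the allografts and was listed at 0 in all metastases, all primary tumors and all tubule libraries. Hoxb9, with the highest FPKM of the family in allografts, had 19.4, 28.9 and 35.1 FPKM in allografts and 16.5, 11.2 and 8.74 FPKM in metastases (log2 change 1.135 ± 0.38 (SE), adjusted p = 0.0514).

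**Figure D4:**
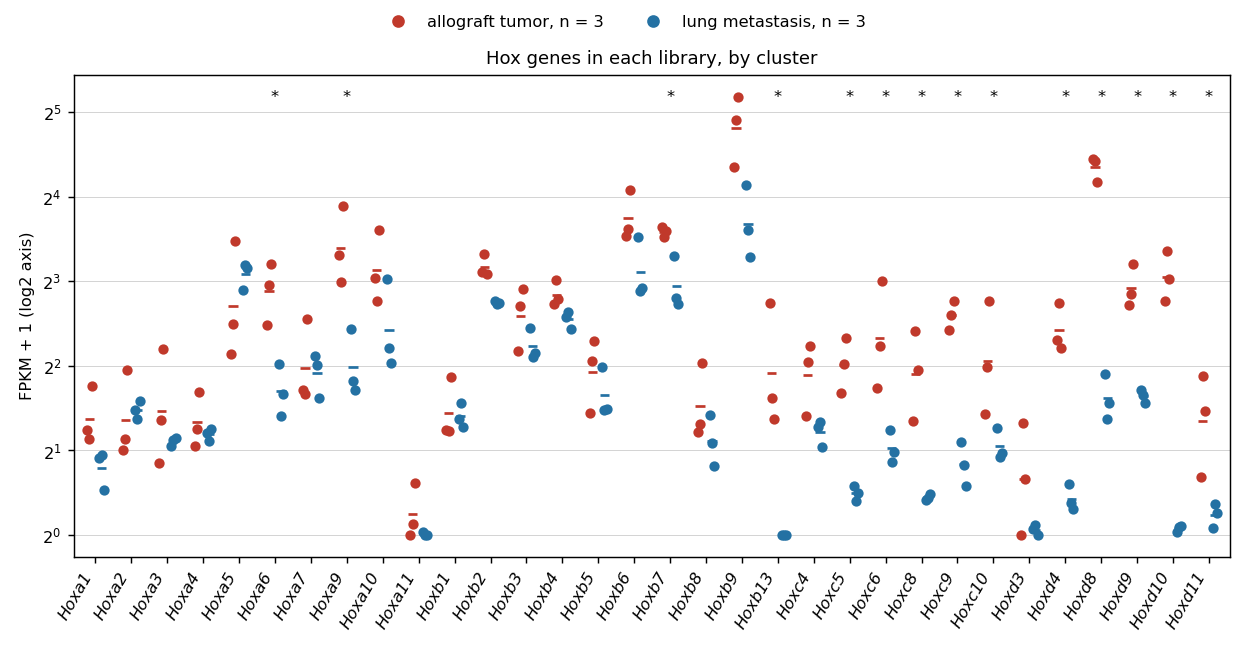
FPKM + 1 on a log2 axis for the 32 tested Hox genes, ordered by cluster and by number within it. Points are libraries, red for allograft tumors and blue for lung metastases, lines are means of the log2 values and asterisks mark the 14 called genes. The D cluster from Hoxd4 to Hoxd11 and the C cluster from Hoxc5 to Hoxc10 are higher in the allografts.

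Few proximal tubule genes were called between the groups, a comparison that cannot show what either group lost relative to tubule cells. Of 34 tested proximal tubule genes 1 was called higher and 2 lower, where 10.4% and 13.3% of all genes were. Without overlap of the libraries 13 were higher and 8 lower, where 24.8% and 23.6% of all genes were. The highest log2 change of the list, 4.27 for Pck1, was not called. Hnf4a, the master regulator of that segment, had 0.232, 1.24 and 0.213 FPKM in allografts and 0.0696, 0.242 and 0.0641 FPKM in metastases, while primary tumors averaged 76.8 FPKM and tubule cells 220.0 FPKM. Aqp1, a water channel that lung capillaries also carry, fell (28.5, 78.3 and 27.3 against 180.0, 141 and 153 FPKM, log2 change -1.97 ± 0.46 (SE), adjusted p = 0.011), as did Napsa, an aspartic protease that alveolar type 2 cells also make (2.63, 5.46 and 2.57 against 157, 176 and 182 FPKM, log2 change -5.30 ± 0.71 (SE), adjusted p = 0.000487). The gene called higher was Gatm, a creatine synthesis enzyme (189, 84.0 and 36.9 against 16.4, 17.3 and 11.9 FPKM, log2 change 2.41 ± 0.78 (SE), adjusted p = 0.048). Its call was lost without allograft 1 or 2 or metastasis 1, 2 or 3 and with 5 of the other alternatives (adjusted p = 0.0519 to 0.17). Among 25 genes of other segments 5 fell, none rose and 20 were not called, where 13.3% of all genes fell. They include the sodium channel subunits Scnn1b (0.173, 0.341 and 0.0946 against 13.3, 16.7 and 18.3 FPKM, log2 change -3.82 ± 0.43 (SE), adjusted p = 0.000172) and Scnn1g (-4.48), which lung epithelium also expresses, and the anion exchanger Slc26a4 (-2.96). The renal lineage factors Pax2 (0.859, 2.96 and 0.222 against 2.75, 1.67 and 2.19 FPKM, log2 change -0.61 ± 0.53 (SE), adjusted p = 0.455) and Pax8 (7.22, 16.8 and 12.2 against 25.3, 15.9 and 13.6 FPKM, log2 change -0.59 ± 0.30 (SE), adjusted p = 0.197) were detected in both groups and overlapped between them. Irx3, a nephron patterning factor, fell (2.53, 2.8 and 1.43 against 14.7, 12.7 and 13.1 FPKM, log2 change -2.18 ± 0.22 (SE), adjusted p = 8.62e-05).

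Many adhesion genes of epithelia were lower in the allografts. Of 34 tested genes 18 fell (13 held) and 5 rose (1 held), where 13.3% and 10.4% of all genes did. The count of rises was 3 without metastasis 2 and 3 without metastasis 3, and the median log2 change was -1.42. E-cadherin Cdh1 had 0.938, 7.87 and 2.01 FPKM in the allograft tumors, against 49.4, 51.4 and 49.95 FPKM in the metastases (log2 change -3.78 ± 0.45 (SE), adjusted p = 0.000239). The mucin gene Muc1 had 0.266, 2.73 and 0.387 FPKM, against 43.6, 51.7 and 49.6 FPKM (log2 change -4.72 ± 0.53 (SE), adjusted p = 0.000156). Kidney cadherin Cdh16 had 2.16, 9.09 and 0.82 FPKM, against 62.3, 20.1 and 20.9 FPKM (log2 change -2.99 ± 0.63 (SE), adjusted p = 0.00667). The protease inhibitor gene Spint1 had 0.707, 8.74 and 1.28 FPKM, against 25.1, 24.9 and 24.2 FPKM (log2 change -2.94 ± 0.50 (SE), adjusted p = 0.00213). In all 4, allograft 2 was the highest allograft and still below every metastasis. Epcam had 0.615, 22.9 and 8.21 FPKM in allografts and 21.6, 23.9 and 22.1 FPKM in metastases (log2 change -1.73 ± 0.76 (SE), adjusted p = 0.128), and without allograft 2 it was called (log2 change -2.61, adjusted p = 0.0159). Alveolar and airway epithelium also express adhesion genes, and the part of lung tissue in these falls was not tested.

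Krt8 and Krt18, the keratin pair of simple epithelia, were higher in the allografts. Krt8 had 224, 247 and 295 FPKM, against 114, 117 and 98.9 FPKM (log2 change 1.20 ± 0.23 (SE), adjusted p = 0.00454). Krt18 had 197, 250.1 and 250.0 FPKM, against 106, 98.9 and 81.9 FPKM (log2 change 1.27 ± 0.29 (SE), adjusted p = 0.00991). The Krt8 call was lost with TPM scaling (adjusted p = 0.085). The Krt18 call was lost with quantile normalization, TPM scaling and scaling without the 50 most abundant genes (adjusted p = 0.0576 to 0.143). The duct keratins Krt7 (83.2, 132 and 271 against 157, 174 and 161 FPKM, log2 change -0.19 ± 0.36 (SE), adjusted p = 0.758) and Krt19 (66.7, 68.8 and 140.1 against 135, 153 and 144 FPKM, log2 change -0.73 ± 0.41 (SE), adjusted p = 0.233) were abundant in both and not called. Pkp1, a desmosome plaque gene, was near 0 in metastases and rose (1.62, 1.05 and 6.05 against 0.0973, 0.065 and 0.0689 FPKM, log2 change 1.64 ± 0.39 (SE), adjusted p = 0.0124). The other genes of the list called higher, Cdh3 (1.19) and Cldn1 (1.62), and Krt23, a keratin called lower (-2.38) with a call that was held, were chosen after their values were seen.

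Few mesenchymal regulators were called, 2 of 29 higher and 4 lower, where 10.4% and 13.3% of all genes were. The count higher was 1 without allograft 2, 1 without allograft 3, 1 without metastasis 1, 1 without metastasis 2 and 1 without metastasis 3. The count lower was 2 without allograft 1, 2 without metastasis 1, 2 without metastasis 2 and 2 without metastasis 3, and 8 with array weights and 10 in the fit of these 6 libraries. Vim had 591, 713 and 777 FPKM in allografts and 994, 1045 and 937 FPKM in metastases (log2 change -0.52 ± 0.58 (SE), adjusted p = 0.568), against a mean of 11.9 FPKM in tubule cells. Bmp4, a BMP ligand, had 2.83, 3.26 and 3.2 FPKM in allografts, against 26.0, 20.7 and 21.4 FPKM in metastases (log2 change -2.53 ± 0.17 (SE), adjusted p = 7.51e-06). Nog, which encodes the secreted BMP antagonist noggin, had 4.47, 5.54 and 6.54 FPKM, against 1.57, 1.2 and 0.692 FPKM (log2 change 1.61 ± 0.19 (SE), adjusted p = 0.000247). Both calls were held and both genes separated the groups. Msln, the mesothelial surface protein mesothelin, had 93.4, 115 and 309.9 FPKM in allografts, against 14.3, 13.7 and 9.7 FPKM in metastases (log2 change 3.49 ± 0.46 (SE), adjusted p = 0.00044), and Wt1, a mesothelial and kidney factor, had 1.92, 7.67 and 2.25 FPKM, against 0.438, 0.316 and 0.252 FPKM (log2 change 1.71 ± 0.38 (SE), adjusted p = 0.00905), a call lost with TPM scaling (adjusted p = 0.0612). Of 7 tested mesothelial genes these 2 rose and 3 fell, namely Upk3b (-1.71), Lrrn4 (-0.87) and Gpm6a (-2.23). The count lower was 1 without allograft 1, 0 without metastasis 2 and 1 without metastasis 3.

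Several fibroblast genes were higher in the allografts. Decorin Dcn had 129, 378 and 130.2 FPKM, against 18.8, 29.0 and 36.9 FPKM in metastases (log2 change 2.72 ± 0.49 (SE), adjusted p = 0.0029). Lumican Lum had 35.8, 76.0 and 21.5 FPKM, against 2.8, 3.4 and 5.78 FPKM (log2 change 3.05 ± 0.48 (SE), adjusted p = 0.00138), both highest in allograft 2. Fap, the serine protease of activated fibroblasts, had 26.1, 21.7 and 15.4 FPKM, against 3.91, 3.0 and 4.07 FPKM (log2 change 2.22 ± 0.28 (SE), adjusted p = 0.0003). Of 21 tested fibroblast genes 6 rose (4 held), 4 fell (2 held) and 11 were not called. The shares of all genes were 10.4% higher and 13.3% lower. The fibroblast count lower was 2 without allograft 1, 2 without metastasis 2 and 2 without metastasis 3. After TPM rescaling 4 rose and 4 fell. The median log2 change was 1.09, and 14 rose with array weights and 11 in the fit of these 6 libraries. The fibrillar collagens Col1a1 (106, 166 and 96.0 against 79.3, 66.6 and 82.2 FPKM, log2 change 0.65 ± 0.56 (SE), adjusted p = 0.458) and Col3a1 (652, 1267 and 448 against 191, 214 and 261 FPKM, log2 change 1.70 ± 0.77 (SE), adjusted p = 0.138) were higher in every allograft and not called. Tcf21, a mesenchymal factor of lung and kidney, fell (0, 0.705 and 0.237 against 6.42, 10.6 and 21.5 FPKM, log2 change -3.28 ± 0.39 (SE), adjusted p = 0.00024).

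Few matrix genes were called, in both directions. Of 39 tested matrix genes 3 rose and 6 fell, where 10.4% and 13.3% of all genes did, and their summed FPKM was 2786 to 4057 in allografts and 3109 to 3902 in metastases. Thbs2, a matricellular thrombospondin, had 38.8, 55.2 and 49.7 FPKM in the allografts, against 2.7, 2.24 and 1.77 FPKM in metastases (log2 change 3.91 ± 0.57 (SE), adjusted p = 0.000871). Gelatinase gene Mmp9 had 99.2, 209 and 107 FPKM, against 8.96, 9.27 and 22.2 FPKM (log2 change 3.30 ± 0.52 (SE), adjusted p = 0.0013). Elastin Eln had 5.08, 14.7 and 4.99 FPKM, against 123, 108 and 100.3 FPKM (log2 change -3.74 ± 0.44 (SE), adjusted p = 0.000207). Nephronectin Npnt had 3.67, 5.5 and 3.16 FPKM, against 116, 69.4 and 78.8 FPKM (log2 change -4.12 ± 0.48 (SE), adjusted p = 0.000212), both being matrix genes of alveoli as well. The laminin chain gene Lama3 (-2.56) fell, and Fn1, encoding fibronectin, had 333, 385 and 565 FPKM in allografts and 351, 288 and 304 FPKM in metastases (log2 change 0.41 ± 0.67 (SE), adjusted p = 0.717).

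**Figure D5:**
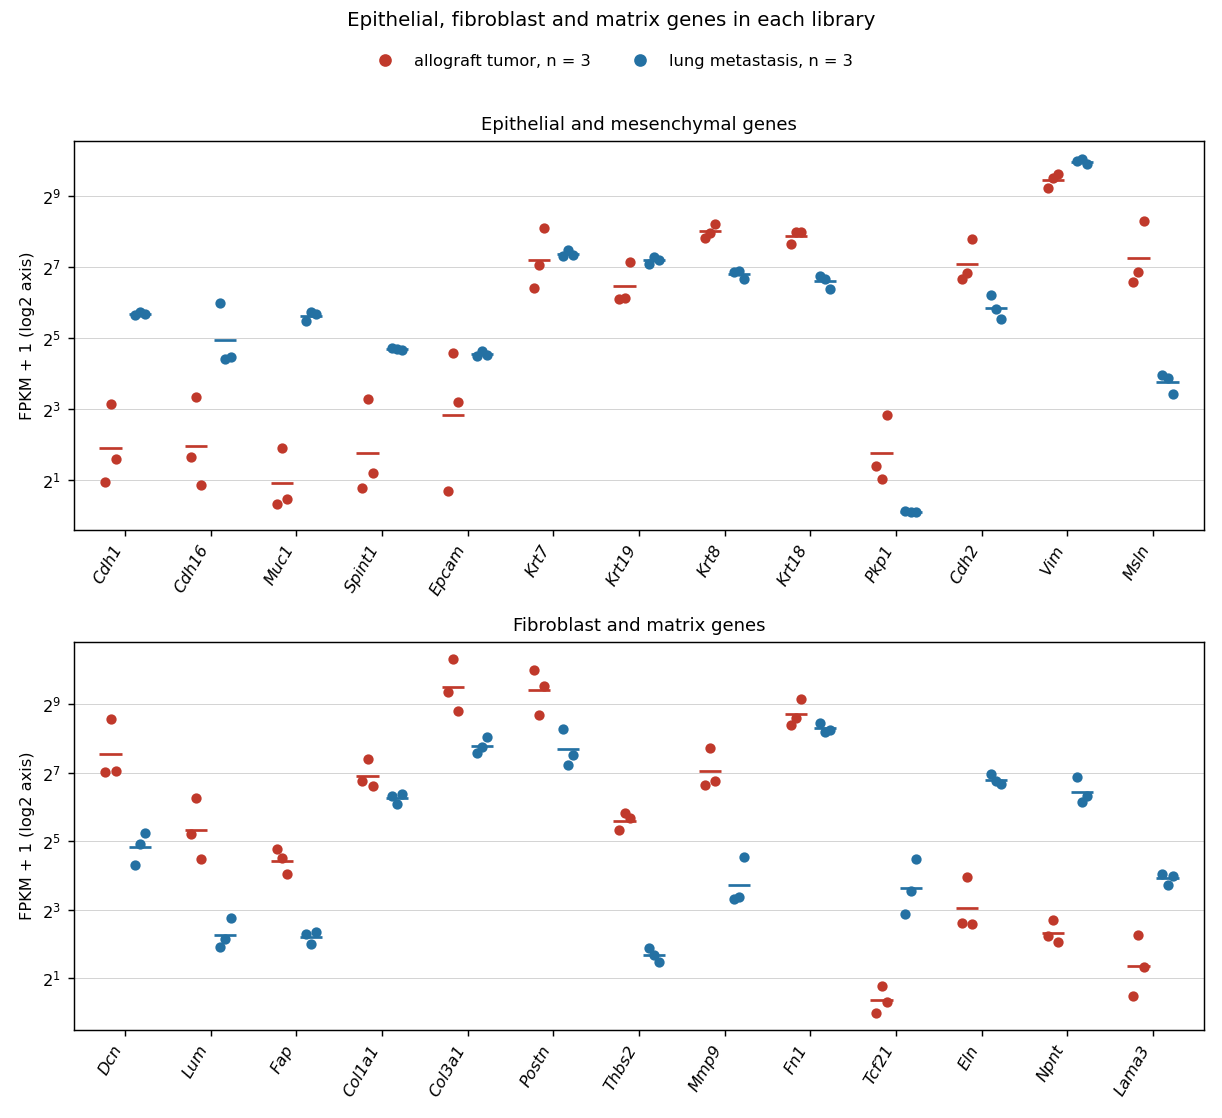
FPKM + 1 on a log2 axis for epithelial and mesenchymal genes (top) and for fibroblast and matrix genes (bottom). Points are libraries, red for allograft tumors and blue for lung metastases, and short lines are means of the log2 values. The 3 allografts lie below the 3 metastases for Cdh1, Muc1 and Spint1, overlap them for Krt7 and Epcam, and lie above them for Dcn, Lum, Fap, Thbs2 and Mmp9.

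Lymphocyte genes were low in the allografts. Of 19 tested T cell genes 16 fell and none rose (10 held, median log2 change -1.19), where 13.3% and 10.4% of all genes did. Summed FPKM was 21.1 to 29.8 in allografts and 84.2 to 122 in metastases. The T cell receptor complex gene Cd3g had 0.411, 0.254 and 0 FPKM, against 6.04, 6.16 and 11.6 FPKM (log2 change -2.83 ± 0.22 (SE), adjusted p = 1.69e-05). The receptor constant gene Trbc2 had 0.499, 1.5 and 0 FPKM, against 16.8, 17.4 and 21.9 FPKM (log2 change -3.66 ± 0.27 (SE), adjusted p = 1.19e-05). Allograft 3 had 0 for both. Cd4 (5.84, 7.35 and 4.95 against 5.23, 4.06 and 5.74 FPKM, log2 change 0.23 ± 0.20 (SE), adjusted p = 0.459), which mouse macrophages and dendritic cells can also carry, and Cd3d (2.55, 3.72 and 11.8 against 5.21, 9.09 and 6.26 FPKM, log2 change -0.36 ± 0.39 (SE), adjusted p = 0.563) overlapped between the groups, and Cd3d was called lower without allograft 3 (adjusted p = 0.021). Of 17 B and plasma cell genes 11 fell (10 held, median -2.24). The B cell surface gene Ms4a1 had 0.312, 0.275 and 0.435 FPKM, against 5.32, 8.33 and 10.4 FPKM (log2 change -2.71 ± 0.30 (SE), adjusted p = 0.000164). Jchain, which joins secreted antibodies, had 0.344, 0.821 and 1.83 FPKM, against 20.9, 27.8 and 37.6 FPKM (log2 change -3.93 ± 0.42 (SE), adjusted p = 0.000117). The heavy chain gene Ighm was still present, at 55.6, 28.9 and 6.2 FPKM in allografts, against 85.0, 139 and 149 FPKM in metastases (log2 change -2.40 ± 0.68 (SE), adjusted p = 0.0282), a call lost without allograft 3 or metastasis 2 or 3 and with the fit of these 6 libraries and the replicate block (adjusted p = 0.0518 to 0.0949). Ebf1, a B cell factor that stromal cells and fat also express, was the 1 member called higher (6.79, 10.47 and 9.58 against 2.66, 3.97 and 4.13 FPKM, log2 change 1.11 ± 0.23 (SE), adjusted p = 0.00676), lost with TPM scaling and scaling without the 50 most abundant genes (adjusted p = 0.0776 to 0.148).

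Natural killer genes split. Of 13 tested genes 9 fell (3 held) and 2 rose (1 held), where 13.3% and 10.4% of all genes did. The count lower was 4 with quantile normalization, 5 without metastasis 3 and 6 in the fit of these 6 libraries. Summed FPKM was 51.5 to 56.5 in allografts and 47.7 to 67.8 in metastases. The cytotoxic granule genes Gzma (0.59, 0.624 and 0.123 against 4.96, 8.59 and 15.1 FPKM, log2 change -2.77 ± 0.32 (SE), adjusted p = 0.000199) and Nkg7 (0.188, 0.864 and 0.18 against 4.67, 5.76 and 5.83 FPKM, log2 change -2.21 ± 0.19 (SE), adjusted p = 2.94e-05) fell. Klra8, a receptor of the Ly49 family, rose, with 25.1, 17.4 and 8.75 FPKM in allografts, against 1.37, 2.04 and 1.16 FPKM in metastases (log2 change 2.75 ± 0.32 (SE), adjusted p = 0.000221). The Ly49 genes are near-identical and vary between strains, so reads could be shared among them. Il1rl1, the interleukin-33 receptor of innate lymphoid and mast cells, had 19.1, 17.1 and 32.8 FPKM, against 11.2, 8.52 and 8.42 FPKM (log2 change 1.16 ± 0.32 (SE), adjusted p = 0.0246), a call lost without allograft 3 or metastasis 2 or 3 and with a pseudocount of 0.1, TPM scaling and scaling without the 50 most abundant genes (adjusted p = 0.0594 to 0.119). Among checkpoint genes Lag3 rose (4.78, 3.67 and 5.41 against 1.06, 1.38 and 1.36 FPKM, log2 change 1.30 ± 0.18 (SE), adjusted p = 0.000548) and Ctla4 fell (0.0945, 0.0312 and 0.147 against 1.52, 2.01 and 1.85 FPKM, log2 change -1.35 ± 0.14 (SE), adjusted p = 8.33e-05).

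Macrophage genes were mixed. Adgre1, encoding F4/80, had 182, 82.2 and 19.2 FPKM in allografts and 71.7, 60.9 and 51.1 FPKM in metastases (log2 change 0.13 ± 0.76 (SE), adjusted p = 0.937), and the growth factor receptor gene Csf1r 163, 124 and 73.7 FPKM and 108, 84.8 and 78.3 FPKM (log2 change 0.35 ± 0.53 (SE), adjusted p = 0.69). Complement gene C1qa had 1708, 913 and 408 FPKM in allografts and 371, 290.0 and 242 FPKM in metastases (log2 change 1.53 ± 0.72 (SE), adjusted p = 0.153). Allograft 1 was the highest and allograft 3 the lowest allograft in all 3. The alveolar macrophage receptor Marco had 0.336, 0.565 and 0.222 FPKM, against 23.1, 70.8 and 50.1 FPKM (log2 change -5.03 ± 0.32 (SE), adjusted p = 4.52e-06). The chitinase-like Chil3 had 1.89, 10.1 and 2.15 FPKM, against 218, 417 and 447 FPKM (log2 change -6.21 ± 0.59 (SE), adjusted p = 5.64e-05). The resistin-like Retnla had 1.98, 13.2 and 1.99 FPKM, against 1224, 2658 and 1654 FPKM (log2 change -8.45 ± 1.35 (SE), adjusted p = 0.00146). Of 29 tested macrophage genes 6 fell, all held, and 3 rose, where 13.3% and 10.4% of all genes did. The count of rises was 1 without allograft 2, 1 without metastasis 1, 1 without metastasis 2 and 1 without metastasis 3. Those that rose were Fabp4, a lipid chaperone of fat and macrophages (383, 1843 and 170.1 against 38.7, 23.3 and 17.4 FPKM, log2 change 4.25 ± 0.70 (SE), adjusted p = 0.00184), the folate receptor gene Folr2 and Cd163, the last chosen after its values were seen, and only Fabp4 was held. Of 9 tested neutrophil and mast cell genes 6 fell, all held, and 10 of the 19 genes of the list were not tested. The falls include Kit, a receptor of mast and stem cells chosen after its values were seen (-3.39), S100a8 (8.16, 13.4 and 3.23 against 101, 177 and 216 FPKM, log2 change -4.26 ± 0.75 (SE), adjusted p = 0.00267) and lactoferrin Ltf (0.0425, 0.118 and 0.186 against 33.5, 45.0 and 26.4 FPKM, log2 change -4.98 ± 0.20 (SE), adjusted p = 9.77e-08).

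Chemokine Ccl8, a ligand for monocytes and other leukocytes, was among the largest rises, with 458, 1154 and 136 FPKM in the allografts, against 12.1, 16.9 and 40.5 FPKM in the metastases (log2 change 4.29 ± 0.65 (SE), adjusted p = 0.00109). It was the 1 chemokine gene of 28 tested that rose, while 4 fell and 23 were not called, where 13.3% of all genes fell. The genes that fell were Ccl5 (3.6, 3.5 and 1.65 against 19.8, 20.9 and 19.8 FPKM, log2 change -2.48 ± 0.40 (SE), adjusted p = 0.00162), Ccl21a (-2.62), Cxcl15 (-8.07) and Cx3cl1 (-1.73). Without allograft 3 the list had 2 genes called higher, and with array weights 4 were higher and 9 lower. The T cell attractants Cxcl9 (2.72, 2.01 and 2.23 FPKM in allografts and 2.73, 3.05 and 2.75 FPKM in metastases, log2 change -0.22 ± 0.17 (SE), adjusted p = 0.415) and Cxcl10 (log2 change -1.13 ± 0.53 (SE), adjusted p = 0.148) were not called, Cxcl10 being called lower with array weights (adjusted p = 0.0119). Hc, which encodes complement C5 (ENSMUSG00000026874, chr2:34983331-35061438, minus strand), was close to absent in the allografts, at 0.0204, 0.066 and 0.0741 FPKM, against 67.6, 99.7 and 93.3 FPKM in the metastases (log2 change -6.36 ± 0.17 (SE), adjusted p = 4.38e-09). NOD mice are known to carry a null allele of Hc. Primary tumors averaged 0.172 FPKM. The part of host strain in the Hc values was not tested.

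Of 16 tested genes of class I antigen presentation 5 were lower in the allografts and 11 were not called. H2-K1, a class I heavy chain, had 278, 224 and 128 FPKM, against 563, 598 and 588 FPKM in the metastases (log2 change -1.54 ± 0.31 (SE), adjusted p = 0.0057). H2-T22, a nonclassical chain, had 20.8, 11 and 19.9 FPKM, against 69.5, 75.7 and 70.1 FPKM (log2 change -2.05 ± 0.27 (SE), adjusted p = 0.000421). H2-D1 (543, 469 and 170.4 against 638, 599 and 624 FPKM, log2 change -0.82 ± 0.40 (SE), adjusted p = 0.174) and B2m (1799, 1207 and 805 against 1874, 2439 and 2184 FPKM, log2 change -0.84 ± 0.37 (SE), adjusted p = 0.129) were lower in every allograft and not called. The calls held numbered 4, and 11 genes fell with array weights. These genes are closely related copies that vary between strains, and the NOD/scid hosts are of another strain than the metastasis mice, so the counting could divide their reads unequally. Of 10 tested class II genes 2 fell, namely H2-Ob (0.789, 0.527 and 0.186 against 3.3, 5.94 and 6.49 FPKM, log2 change -2.04 ± 0.29 (SE), adjusted p = 0.000774), a call that was held, and H2-Oa (-1.14), which was not. The share of all genes that fell was 13.3%. The count of class II genes lower was 1 without allograft 3, 1 without metastasis 2 and 1 without metastasis 3, and 2 genes were called higher without allograft 3. H2-Aa was not called (1454, 544 and 259.8 FPKM in allografts and 442, 402 and 519 FPKM in metastases, log2 change 0.39 ± 0.53 (SE), adjusted p = 0.653), where allograft 1 was above and allograft 3 below all metastases.

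Part of the interferon list was lower in the allografts. Of 28 tested genes 10 fell (3 held) and none rose, where 13.3% and 10.4% of all genes did. The median log2 change was -0.94, and the count lower was 5 without allograft 3, 3 without metastasis 2 and 3 without metastasis 3. A further 18 genes were not called, and the summed FPKM of the list was 397 to 1708 in allografts and 762 to 1000 in metastases. The interferon-inducible gene Ifi27l2a, not called, had 924, 1317 and 127 FPKM in allografts and 115, 159 and 183 FPKM in metastases (log2 change 1.84 ± 1.04 (SE), adjusted p = 0.237). The GTPase gene Iigp1 had 8.03, 13.2 and 3.37 FPKM in allografts, against 32.6, 47.6 and 54.0 FPKM in metastases (log2 change -2.44 ± 0.47 (SE), adjusted p = 0.00427). The antiviral RNA-binding genes Ifit1 (9.84, 9.38 and 7.75 against 27.7, 43.4 and 40.6 FPKM, log2 change -1.92 ± 0.50 (SE), adjusted p = 0.0199) and Ifit3 (24.9, 19.4 and 9.17 against 57.2, 85.1 and 80.8 FPKM, log2 change -2.08 ± 0.54 (SE), adjusted p = 0.0182) fell together, with all 3 allografts below the metastases. The Ifit1 call was lost without allograft 1 or 3 or metastasis 2 or 3 (adjusted p = 0.0507 to 0.0724), and the Ifit3 call was lost without allograft 3 or metastasis 2 or 3 (adjusted p = 0.058 to 0.065). Gbp2, a GTPase gene, had 71.7, 29.9 and 23.2 FPKM in allografts and 35.5, 31.4 and 35.1 FPKM in metastases (log2 change 0.12 ± 0.47 (SE), adjusted p = 0.905).

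The promoters of Ifit1 and Ifit3, shown because the pair moved together, each hold 2 copies of the interferon-stimulated response element (GAAANNGAAA, or TTTCNNTTTC on the other strand, in capitals). The windows are those of RefSeq on GRCm38.p6, Ifit1 at chr19:34640639-34640938, plus strand, and Ifit3 at chr19:34583279-34583578, plus strand.
Ifit1: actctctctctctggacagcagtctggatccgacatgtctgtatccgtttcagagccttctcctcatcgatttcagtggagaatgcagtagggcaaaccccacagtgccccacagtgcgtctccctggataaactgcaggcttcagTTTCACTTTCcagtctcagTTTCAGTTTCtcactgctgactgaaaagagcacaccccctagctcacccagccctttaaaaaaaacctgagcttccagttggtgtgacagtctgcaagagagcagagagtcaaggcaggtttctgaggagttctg
Ifit3: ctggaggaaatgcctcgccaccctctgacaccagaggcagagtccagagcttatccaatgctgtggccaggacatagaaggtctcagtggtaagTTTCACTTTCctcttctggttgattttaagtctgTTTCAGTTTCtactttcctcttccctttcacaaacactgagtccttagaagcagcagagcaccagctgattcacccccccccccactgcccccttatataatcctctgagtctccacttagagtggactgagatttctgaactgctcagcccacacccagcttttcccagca

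The element was in the promoters of 6 of the 7 interferon genes that fell and had a window, of 7 of 13 that were not called, and of 3.98% of all tested genes with a window. Both genes lie on chromosome 19.

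Part of the glycolysis list was higher in the allografts. Enolase gene Eno2 had 9.17, 8.49 and 11.2 FPKM, against 2.81, 2.49 and 2.09 FPKM in metastases (log2 change 1.61 ± 0.15 (SE), adjusted p = 5.66e-05), and this call was held. Of 23 tested glycolysis genes 5 rose and none fell, where 10.4% and 13.3% of all genes did, and only the Eno2 call was held. The median log2 change was 0.34, and -0.02 after TPM rescaling. The count of rises was 2 without allograft 1, 3 without allograft 3, 2 without metastasis 2, 1 without metastasis 3 and 2 after TPM rescaling. Lactate dehydrogenase gene Ldha had 1132, 612 and 788 FPKM in allografts, against 497, 342 and 268 FPKM in metastases (log2 change 1.19 ± 0.38 (SE), adjusted p = 0.0436), a call lost without allograft 1 or 3 or metastasis 2 or 3 and with no filter, the replicate block and TPM scaling (adjusted p = 0.0565 to 0.162). None of 23 oxidative phosphorylation genes was called by limma, where 3 had an unadjusted p under 0.05, 8 were called with array weights and 2 in the fit of these 6 libraries. Hif1a, the oxygen-regulated subunit of HIF-1, had 115, 96.7 and 124 FPKM, against 50.9, 55.7 and 54.3 FPKM (log2 change 1.04 ± 0.16 (SE), adjusted p = 0.00104), a call lost with TPM scaling (adjusted p = 0.0682). The carbonic anhydrase gene Car12 had 14.4, 24.4 and 39.5 FPKM, against 2.65, 2.01 and 1.26 FPKM (log2 change 3.11 ± 0.69 (SE), adjusted p = 0.00927), and the call was held. Vegfa, the endothelial growth factor, had 72.9, 89.5 and 188 FPKM in allografts and 274, 216 and 276 FPKM in metastases (log2 change -1.24 ± 0.46 (SE), adjusted p = 0.0771).

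Among growth factor receptors of epithelia, Fgfr2 and Erbb3 fell. Fgfr2 had 5.71, 9.61 and 5.71 FPKM in allografts, against 41.9, 36.3 and 39.1 FPKM in metastases (log2 change -2.36 ± 0.25 (SE), adjusted p = 0.000101). The neuregulin receptor gene Erbb3 had 0.689, 2.48 and 0.368 FPKM, against 7.74, 7.74 and 7.68 FPKM (log2 change -2.12 ± 0.44 (SE), adjusted p = 0.0066). Pdgfc, a ligand of the PDGF receptors, rose (14.3, 15.4 and 34.6 against 6.95, 3.95 and 3.73 FPKM, log2 change 1.86 ± 0.38 (SE), adjusted p = 0.00537). Of 30 tested genes 3 rose and 6 fell, where 10.4% and 13.3% of all genes did. The AP-1 member Fosl1 had 5.68, 3.71 and 11.4 FPKM, against 0.361, 0.631 and 0.461 FPKM (log2 change 2.31 ± 0.29 (SE), adjusted p = 0.000332), while the stress chaperone gene Hspa1a had 8.3, 3.54 and 3.18 FPKM, against 33.7, 103 and 95.2 FPKM (log2 change -3.65 ± 0.55 (SE), adjusted p = 0.00108). Hspa1a responds to the handling of tissue, and its part in the other differences was not tested.

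Of the remaining genes among the largest rises, Cep85 stood at nearly the same level in every library of a group. Cep85 (ENSMUSG00000037443, chr4:134129858-134187112, minus strand), which encodes a centrosomal protein, had 302, 313 and 314 FPKM in the allograft tumors, against 10.1, 10.9 and 10.2 FPKM in the metastases (log2 change 4.77 ± 0.34 (SE), adjusted p = 8.76e-06), and primary tumors averaged 21.8 FPKM. The interferon-inducible gene Ifi202b had 52.3, 37.0 and 16.5 FPKM, against 0, 0.0762 and 0.515 FPKM (log2 change 4.80 ± 0.43 (SE), adjusted p = 3.9e-05), opposite in direction to the interferon genes called lower. The histone genes Hist1h2ba (258, 124 and 42.5 against 0.783, 1.57 and 0.666 FPKM, log2 change 5.83 ± 0.53 (SE), adjusted p = 4.09e-05) and Hist1h2an (111, 57.5 and 45.2 against 1.45, 5.22 and 0.924 FPKM, log2 change 4.44 ± 0.52 (SE), adjusted p = 0.000214) were highest in allograft 1. Ifi202b and Hist1h2an have near-identical copies, so their values are uncertain. Whether reads of related histone genes entered the Hist1h2ba values was not tested. All 4 calls were held.

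Genes of the Y chromosome were higher in the allografts, as Eif2s3y had 25.3, 27.5 and 11.9 FPKM and was listed at 0 in all 3 metastases (adjusted p = 0.0217), a call lost without allograft 1 or 2 or metastasis 1, 2 or 3 (adjusted p = 0.0567 to 0.0684). Xist, the RNA of the inactive X chromosome, was present in both groups, at 63.7, 48.9 and 127 FPKM in allografts and 94.8, 87.9 and 96.9 FPKM in metastases. Each allograft library thus held RNA of both kinds. Sex and group cannot be told apart among the autosomal differences.

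Most microRNA genes among the calls rest on few fragments. Mir453, the microRNA gene among the largest rises (ENSMUSG00000077925, chr12:109735619-109735700, plus strand), had 38.8, 23.9 and 18.8 FPKM in allografts and was listed at 0 in all metastases (adjusted p = 2.25e-07). Multiplied by the relative depth, these values stood as 3, 2 and 1, that is, in steps of a single smallest value. Of others, chosen after their values were seen, Mir31 stood at 1 step in every allograft and at 0 in every metastasis. Mir449c had 0 in the allografts and 2, 2 and 1 steps in the metastases. With more fragments, Mir196a-1 had 8, 10 and 11 steps in allografts, against 4, 0 and 1 in metastases, and Mir6353 had 1, 0 and 0, against 18, 13 and 13. The mature sequences of the first 3, from RefSeq on GRCm38.p6 with the seed (bases 2 to 8) in capitals, are shown because the gene values say which hairpin regions had fragments and not that the mature forms were measured.
miR-453: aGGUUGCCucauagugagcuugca
miR-31-5p: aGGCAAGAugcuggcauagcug
miR-31-3p: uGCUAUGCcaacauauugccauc
miR-449c-5p: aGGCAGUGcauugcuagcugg
miR-449c-3p: cAGUUGCUagcugcacuacccu

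No seed is shared among the 5. Of 425 tested microRNA genes 26 were called, 9 higher and 17 lower, where 23.7% of all genes were called. Of the 26, 21 lay at whole steps, within 5%, of at most 5 in any library. A value of so few fragments carries a counting error that the spread between 3 libraries need not show.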

How the data were processed

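Per the submitters' processing notes, reads were handled with bcl2fastq 2.17.1.14 and Salmon on GRCm38 (mm10). No source used here gives the Salmon version, library kind, strandedness or gene lengths. The table that was deposited holds FPKM values for 24432 genes in 12 libraries, as the authors normalized them, and 24222 identifiers matched GENCODE M21.

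FPKM are not counts, so the genes that reached 1 FPKM in 3 or more libraries were tested on log2 values, log2(deposited FPKM + 1), with limma 3.58.1 (R 4.3.3, moderated test with a trend over all 12 libraries in 4 groups, two-sided, Benjamini-Hochberg adjustment over 16313 genes). The fit was tested on simulated data. Depth was estimated from steps between low FPKM values and is approximate.

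Named genes were a fixed set of anchors, the 12 largest called rises and falls that averaged 10 FPKM or more in the higher group with no overlap of libraries, and, per list, the largest called members in each direction and the most abundant. The members and the 40 lists were chosen with earlier results of these data known. Alternatives were other pseudocounts, filters, scalings, variance estimates, library weights and fold thresholds, the 2 groups alone, a replicate block, and leaving out each library. Promoters and microRNAs came from RefSeq (GRCm38.p6) and gene positions from GENCODE M21.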

Additional observations from a re-analysis of the deposited data

How the results depend on the processing

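Genes called higher in allograft tumors, 1703 as reported, numbered 464 after TPM rescaling, 784 without the 50 most abundant genes, 3239 with array weights, 747 with a minimum of 2-fold, and 820 to 1646 when 1 library was left out. Genes called lower, 2169 as reported, numbered 1355 with a filter of 5 FPKM, 3272 with array weights (a fit whose weights stopped short of their convergence tolerance), and 1458 to 2096 when 1 library was left out. No named gene changed direction in a call. Calls of named genes were lost most often without lung metastasis 3 (58), without lung metastasis 2 (52), without allograft 1 (44) and after TPM rescaling (31), and array weights added 24. The cause was not tested.

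With the replicate number as a block 1567 genes were called higher and 2072 lower, and 11 calls of named genes were lost. Deviations of allograft and metastasis libraries with the same number were not correlated (r = 0.0563, 0.016 and -0.0408). Other pairs of groups were not checked, and no label says that the numbers pair samples. Depth limits low genes: 1 fragment on a transcript of 2 kb was worth 0.0258 to 0.0417 FPKM.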

Other observations

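Further genes are given as values, chosen after their values were seen. Atp6v0c, which encodes the proton channel subunit of the vacuolar ATPase, had 0.294, 0.816 and 6.58 FPKM in allograft tumors, against 193, 195 and 167 FPKM in lung metastases (log2 change -6.15 ± 1.39 (SE), adjusted p = 0.00986). The 3 sorted tubule libraries also differed widely among themselves for Atp6v0c, at 251.0, 1.385 and 4.656 FPKM. Its values are therefore uncertain, and how its reads were assigned was not tested. Stra6, the cell surface receptor for retinol binding protein, had 9.95, 21.5 and 26.7 FPKM in allografts, against 0.174, 0.142 and 0.158 FPKM in metastases (log2 change 4.03 ± 0.64 (SE), adjusted p = 0.00137). Ces1g, a carboxylesterase of lipid metabolism, had 36.5, 16.2 and 23.7 FPKM, against 0.585, 0.479 and 0.627 FPKM (log2 change 4.01 ± 0.29 (SE), adjusted p = 9.06e-06). The adenosine deaminase gene Ada had 45.5, 26.0 and 25.7 FPKM, against 2.14, 2.88 and 2.31 FPKM (log2 change 3.23 ± 0.31 (SE), adjusted p = 5.57e-05). These genes stand among the largest called changes, a set limited to genes without overlap between the groups. Their lack of overlap, which 48.5% of all genes share, is therefore no further result.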
